A study of Homo sapiens with 6 samples.

Results

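The annexins are a family of proteins that bind membrane phospholipids in the presence of calcium, and 10 of their genes were examined: ANXA1, ANXA2, ANXA3, ANXA4, ANXA5, ANXA6, ANXA7, ANXA8, ANXA10 and ANXA11. They were picked by gene symbol from a table of read counts for 62700 genes, and all 10 were found. The counts came from RNA sequencing of MKN-45 cells, an established human gastric adenocarcinoma line. There were 3 libraries labelled NNMT knockdown and 3 control libraries. NNMT encodes nicotinamide N-methyltransferase. The protocol text names siRNA delivered with a lipid reagent, whereas the sample labels name shRNA. For the control libraries the sample labels name a negative-control shRNA, the protocol a non-targeting siRNA, and the design text untouched cells. Harvest was 48 h after transfection in both groups, reads were 150 bases long and paired, and the replicates were described as independent.

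An annexin protein consists of a conserved core of repeats, which binds calcium and acidic phospholipids such as phosphatidylserine, and a variable N-terminal tail. The tail sets the partners: that of ANXA2 binds S100A10, and the long tails of ANXA7 and ANXA11 bind the calcium sensor encoded by PDCD6. Family members take part in membrane repair, vesicle traffic, exocytosis and plasminogen activation at the cell surface, and ANXA10 is known as a gene of the gastric epithelium.

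Library totals of reads counted on genes ranged from 40558680 to 45405621 in knockdown libraries and from 41591436 to 56067484 in control libraries. NNMT had 2, 8 and 14 reads in knockdown replicates 1, 2 and 3, against 0, 8 and 12 reads in control replicates 1, 2 and 3, so a lowering of its RNA was not detectable and the groups are named by their labels throughout. Among markers of the labelled tissue, KRT19, an epithelial keratin gene, lay between 898 and 1261 CPM (the reads of a gene scaled to a common library total) over the 6 libraries. MUC6, a gastric gland mucin gene, lay between 25.7 and 84.1 CPM. The gastric gene GKN1 and the intestinal factor genes CDX1 and CDX2 had 0 reads in all 6 libraries. CLDN18, a gastric tight junction gene, did not exceed 0.357 CPM. Of the other gastric markers, MUC5AC measured 3.67 to 42.5 CPM, with the highest value in knockdown replicate 2. TFF1 measured 1.64 to 8.37 CPM and TFF2 0.553 to 3.5 CPM. GKN2, PGC, ATP4A and ATP4B did not exceed 0.176 CPM. Of the other intestinal markers, MUC2, a mucin gene, measured 6.84 to 18.25 CPM over the 6 libraries. CDH17, VIL1 and LGALS4 did not exceed 0.353 CPM. The epithelial gene EPCAM measured 17.2 to 24.4 CPM in knockdown libraries and 18.3 to 40 CPM in control libraries. Genes listed as markers of other cell types also had reads, and whether other cells carried them was not tested. The 8 mesenchymal markers summed to 1187 to 1334 CPM in knockdown libraries and 1138 to 1227 CPM in control libraries. The 5 epithelial ones summed to 1262 to 1596 and 1297 to 1318 CPM in knockdown and control libraries. The mesenchymal filament gene VIM lay between 701 and 990 CPM and the collagen gene COL1A1 between 241 and 510 CPM over the 6 libraries. The collagen genes COL3A1 and COL1A2 measured 70.2 to 102.5 and 5.76 to 19.4 CPM, while DCN, LUM, PDGFRB and THY1 did not exceed 2.35 CPM. The 4 endothelial markers summed to 125 to 239 CPM in knockdown libraries and 152 to 270 CPM in control libraries. Over the 6 libraries KDR measured 107 to 243 CPM, PECAM1 measured 17.7 to 26.1 CPM, and CDH5 and VWF at most 0.667 CPM. The part of these levels in the annexin values was not tested. The summed level of 5 immune markers was 0.483 to 0.838 CPM in knockdown libraries and 0.785 to 1.35 CPM in control libraries.

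The bases before the transcription start are shown for ANXA2, the member with the most reads, ANXA10, the lowest member that could be tested, and ANXA1, because they are the 3 annexin promoters with a TATA box close to 30 bases before the start. Each window holds the 250 bases before the RefSeq start in GRCh38.p14, 5′ to 3′ on the strand of the gene. Capitals mark matches, on either strand, to 4 motifs. The letters searched were TATAAA for the TATA box. For the binding site of the factor AP-1 they were TGANTCA. For the GC box, which binds SP1, they were GGGCGG. For the NF-Y box they were CCAAT. The windows are chr15:60397987-60398236 on the minus strand for ANXA2, chr4:168092287-168092536 on the plus strand for ANXA10 and chr9:73151615-73151864 on the plus strand for ANXA1.
ANXA2: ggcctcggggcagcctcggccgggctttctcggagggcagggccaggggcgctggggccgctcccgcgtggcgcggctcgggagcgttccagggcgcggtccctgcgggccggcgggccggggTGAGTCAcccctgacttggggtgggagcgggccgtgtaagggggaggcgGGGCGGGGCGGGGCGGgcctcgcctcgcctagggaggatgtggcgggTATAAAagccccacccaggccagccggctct
ANXA10: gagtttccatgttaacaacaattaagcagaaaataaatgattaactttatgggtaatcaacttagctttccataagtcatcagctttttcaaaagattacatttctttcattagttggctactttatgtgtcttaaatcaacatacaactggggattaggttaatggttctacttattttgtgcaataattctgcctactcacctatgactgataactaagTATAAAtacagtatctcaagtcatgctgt
ANXA1: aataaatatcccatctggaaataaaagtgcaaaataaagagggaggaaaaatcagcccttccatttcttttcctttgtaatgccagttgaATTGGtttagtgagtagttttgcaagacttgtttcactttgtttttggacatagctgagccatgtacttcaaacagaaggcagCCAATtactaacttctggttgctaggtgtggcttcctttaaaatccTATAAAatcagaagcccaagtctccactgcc

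The TATA box began 31 bases before the start in ANXA2, 29 in ANXA10 and 31 in ANXA1, and 10.7% of 35116 promoter windows of the same length held these letters anywhere. The ANXA2 window was rich in CG dinucleotides, with 28 of them and 78% G or C, and held 3 GC boxes and 1 AP-1 site. ANXA10 and ANXA1 had 0 CG dinucleotides, as did 6.06% of all windows, against a median of 11 over all of them. A CG-free window thus went with a low level in ANXA10 and a higher one in ANXA1. Over all windows, 42.6% held a GC box, 32% an NF-Y box and 6.57% an AP-1 site. No match overlapped a match of another motif in these windows. Of the 10 genes, 9 had an entry in the promoter table. ANXA8 had none.

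The annexins were abundant as a group, and ANXA2 supplied the most reads. Reads of the 10 genes made up 0.465%, 0.433% and 0.372% of all reads counted on genes in knockdown replicates 1, 2 and 3. In control replicates 1, 2 and 3 they made up 0.463%, 0.382% and 0.37%. The share of these annexin reads that fell on ANXA2 was 51.2%, 47.9% and 44.4% in the knockdown libraries, against 47.7%, 42.5% and 43.4% in the control libraries. ANXA7, ANXA11 and ANXA5 each held between 11.6% and 15.8% in every library. These shares count reads and so favour long transcripts. In RNA from whole cultures, less RNA per cell and fewer cells with that RNA cannot be told apart.

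**Figure D1:**
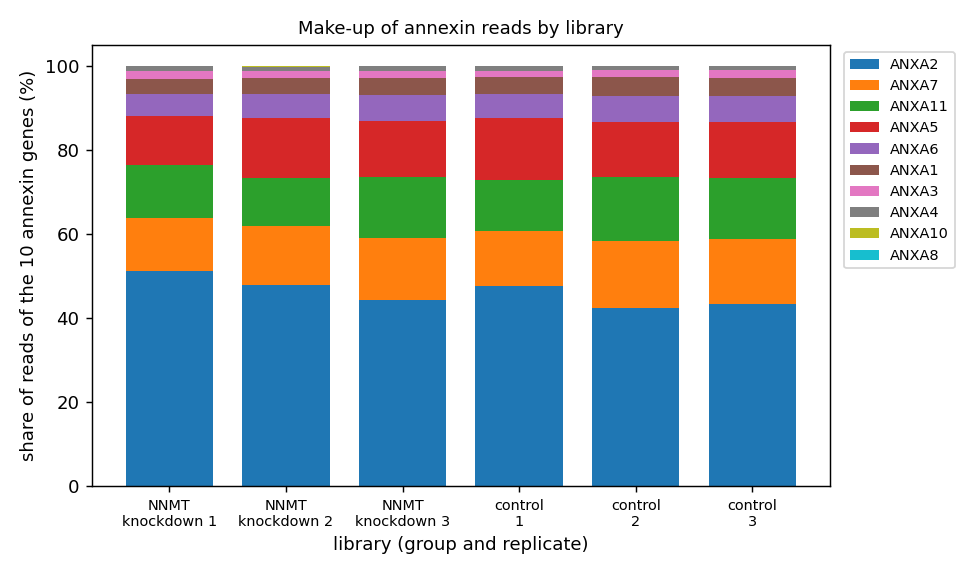
Stacked bars give the share of the reads of 10 annexin genes (%) that fell on each gene, by library, with the 3 knockdown libraries left of the 3 control libraries. ANXA2 holds 42.5% to 51.2% in every library, and ANXA10 and ANXA8 are barely visible.

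Per length, ANXA7, ANXA5 and ANXA2 formed a top group. In RPKM, which divides the CPM by the merged exon length in kilobases, ANXA7 averaged 202 ± 10.2 in knockdown libraries and 206 ± 6.17 in control libraries (SD, n = 3 each). ANXA5 averaged 188 ± 21.3 RPKM in knockdown libraries and 191 ± 36.5 RPKM in control libraries, and ANXA2 averaged 176 ± 31.5 and 156.5 ± 29.8 RPKM in knockdown and control libraries. Neighbours in this group were not separated beyond their spread, since ANXA7 exceeded ANXA5 in 5 of 6 libraries and ANXA5 exceeded ANXA2 in 5 of 6. The order below was ANXA11 (64.9 RPKM over the 6 libraries), ANXA6 (43.3), ANXA1 (37.8), ANXA3 (14.6), ANXA4 (3.9), ANXA10 (3.16) and ANXA8 (0.0137). Each of these steps held in all 6 libraries except that ANXA4 exceeded ANXA10 in 5 of 6.

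The place of ANXA2 depended on the length used. Its merged exons span 11574 bases, while the median of its 4 coding transcripts in GENCODE 29 is 1444 bases. Divided by that median transcript length instead, ANXA2 came to 1332 on that scale (CPM per kilobase) over the 6 libraries, ANXA5 to 407 and ANXA7 to 238, which puts ANXA2 at the top and ANXA7 at rank 3. ANXA5 at rank 2 and the 7 genes below these 3 kept their ranks under both lengths. This second length was chosen after the data were seen.

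The central question was whether any annexin gene differed between the NNMT knockdown and control libraries. ANXA2, ANXA3, ANXA4 and ANXA10 averaged higher in the knockdown libraries by 1.12- to 1.25-fold, and ANXA1, ANXA5, ANXA6, ANXA7 and ANXA11 averaged lower, with a fitted fold of 0.933 to 0.985. None of these differences passed. Of 9 annexin genes that passed the filter on low counts, 0 had an adjusted p under 0.05 in the quasi-likelihood test of edgeR and 0 had an unadjusted p under 0.05. Over all 20250 genes tested, the adjusted threshold was passed by 0% and the unadjusted one by 4.03%. With DESeq2 and with edgeR without the filter, 0 annexin genes passed, against 0.0395% and 0.19% of all genes, and limma-voom called 0% of all genes. In the main edgeR test their adjusted p was 0.9995 in each case, which was also the smallest of any gene. The groups overlapped for all 9, while they did not overlap for 9.2% of all tested genes.

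**Figure D2:**
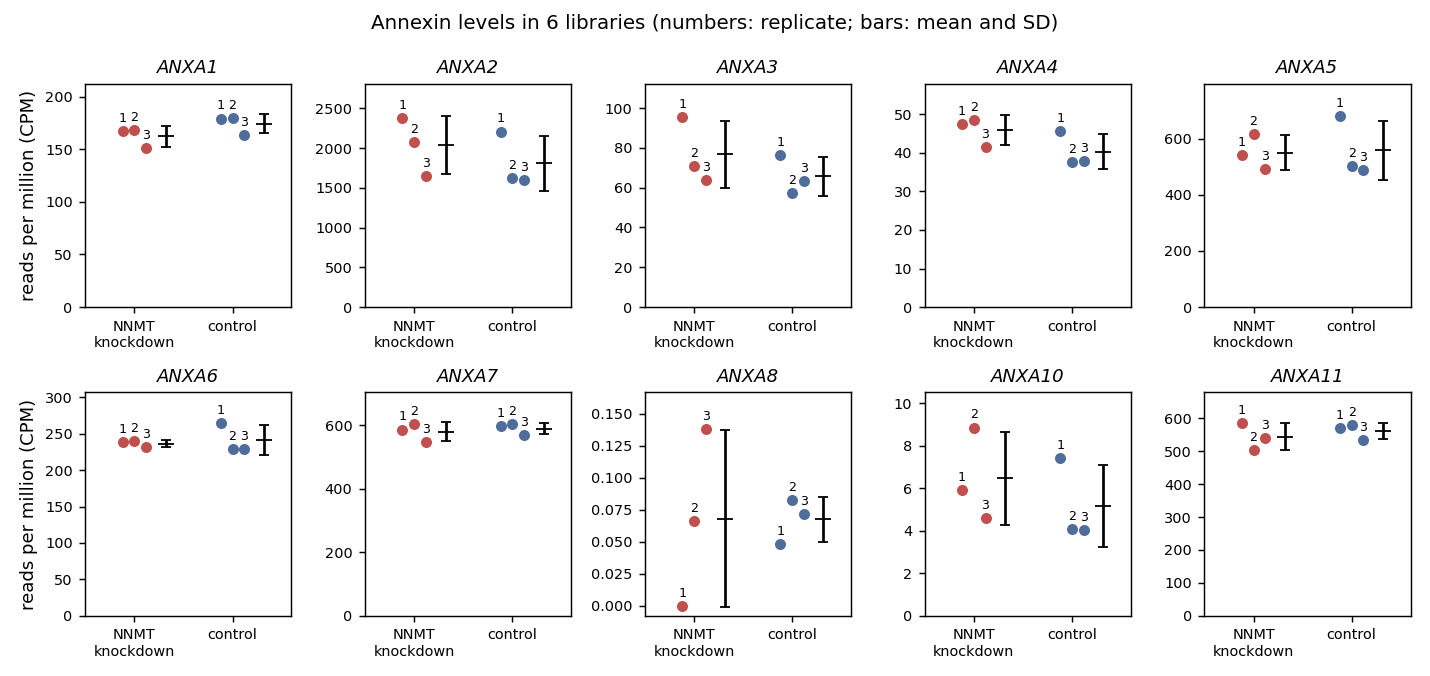
Each panel gives the level of 1 annexin gene in CPM, with points for libraries numbered by replicate, knockdown left of control, and a bar for the mean and SD of 3. The groups overlap in every panel, and replicate 1 of both groups is high for ANXA2 and ANXA3.

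ANXA2, which encodes a protein of the cell surface and endosomes that forms a complex with S100A10, lies on the minus strand of chromosome 15 from 60347134 to 60402883 (hg38). It measured 2378, 2074 and 1652 CPM in knockdown replicates 1, 2 and 3, against 2210, 1621 and 1604 CPM in control replicates 1, 2 and 3. Control replicate 1 was above 2 of the 3 knockdown libraries, so the groups overlapped. The fitted log2 fold change was 0.17 (SE 0.173), and the fold had 95% bounds of 0.86 and 1.47. Leaving out knockdown replicate 1 gave 0.024 and leaving out control replicate 1 gave 0.348.

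ANXA3 (chromosome 4, 78551747 to 78610451) encodes an annexin first described as an inhibitor of phospholipase A2. It measured 95.7, 70.9 and 63.7 CPM in knockdown replicates 1, 2 and 3, against 76.4, 57.4 and 63.2 CPM in control replicates 1, 2 and 3. Knockdown replicate 1 stood above the other 5 libraries, which lay between 57.4 and 76.4 CPM. The log2 fold change was 0.23 (SE 0.176), and it was 0.0202 without that library.

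ANXA4 (chromosome 2, 69644425 to 69827112), which encodes an annexin of epithelial membranes, had the lowest p of the 9 genes. It measured 47.6, 48.6 and 41.6 CPM in knockdown libraries, against 45.6, 37.6 and 37.8 CPM in control libraries, each in the order of replicates 1, 2 and 3. Here control replicate 1 lay within the range of the knockdown libraries and the other 2 control libraries lay below it. The log2 fold change was 0.191 (SE 0.11), and the fold had 95% bounds of 0.965 and 1.35. Its unadjusted value of 0.11 from edgeR did not pass.

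ANXA10 (chromosome 4, 168092537 to 168187736) is the gastric member and was low. Its reads numbered 240, 402 and 200 in knockdown replicates 1, 2 and 3, against 308, 196 and 225 in control replicates 1, 2 and 3, or 4.6 to 8.85 CPM against 4.01 to 7.41 CPM. Knockdown replicate 2 and control replicate 1 were the highest libraries of their groups. The log2 fold change of 0.323 (SE 0.308) had the widest interval of the 9 genes, a fold from 0.772 to 2.03, and it moved between 0.0402 without knockdown replicate 2 and 0.686 without control replicate 1.

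ANXA1 (chromosome 9, 73151865 to 73170393) encodes an anti-inflammatory protein induced by glucocorticoids. It measured 167, 168 and 151 CPM in knockdown replicates 1, 2 and 3, against 179, 179 and 164 CPM in control replicates 1, 2 and 3. Only control replicate 3 lay among the knockdown values. The fold was 0.933, with a 95% interval from 0.816 to 1.07.

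ANXA5 (chromosome 4, 121667946 to 121696995) encodes the phosphatidylserine-binding protein used to stain dying cells. It measured 543, 616 and 492 CPM in knockdown replicates 1, 2 and 3, against 682, 505 and 490 CPM in control replicates 1, 2 and 3. The highest and the lowest of the 6 libraries were both controls, and the log2 fold change was -0.022 (SE 0.142). Its sign turned when control replicate 1 was left out, at 0.157, and when knockdown replicate 3 was left out, at 0.0518.

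ANXA6, ANXA7 and ANXA11 had nearly equal means in both groups. ANXA6 (chromosome 5, 151100706 to 151157815), whose protein has a doubled core and acts in endosomes and cholesterol traffic, averaged 236 ± 4.55 CPM in knockdown libraries and 241 ± 20.4 CPM in control libraries (SD, n = 3 each). ANXA7 (chromosome 10, 73375101 to 73414076), also called synexin, averaged 579 ± 29.2 CPM in knockdown libraries and 589 ± 17.7 CPM in control libraries. The RNA granule and lysosome tether gene ANXA11 (chromosome 10, 80150889 to 80205572) averaged 543 ± 41 and 562 ± 24.3 CPM in knockdown and control libraries. The 95% intervals of the fold were 0.854 to 1.13, 0.858 to 1.13 and 0.832 to 1.13, in the order ANXA6, ANXA7 and ANXA11, so a change of 1.5-fold lay outside each.

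ANXA8 (chromosome 10, 47460162 to 47484158) was at the detection limit and did not pass the filter. It had 0, 3 and 6 reads in knockdown replicates 1, 2 and 3, against 2, 4 and 4 reads in control replicates 1, 2 and 3. A count of 0 allows 3 reads, or 0.074 CPM in knockdown replicate 1, and covers counting error only. Its coding sequence was 99.5% identical to that of its copy ANXA8L1 over 981 aligned bases, and ANXA8L1 had 0 reads in all 6 libraries. Reads that align to several places were not counted, so the low level of both genes is uncertain.

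**Figure D3:**
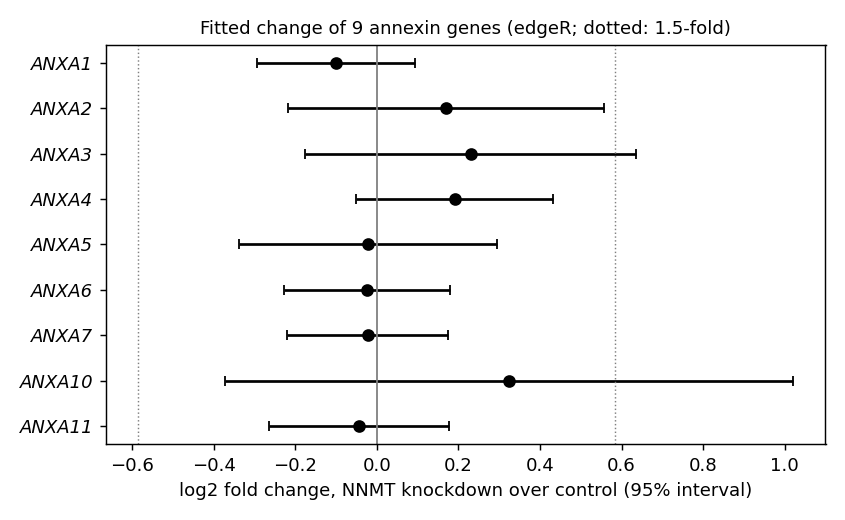
Points give the fitted log2 fold change of NNMT knockdown over control for 9 annexin genes, with 95% intervals from edgeR's quasi-likelihood fit, and dotted lines mark 1.5-fold. Every interval includes 0, and those of ANXA3 and ANXA10 reach past 1.5-fold.

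For most annexin genes the interval of the fold was narrow. The 95% interval of the fold lay within 1.5-fold either way for 7 of the 9 tested genes and within 2-fold for 8 of 9, the exception to the wider bound being ANXA10. Over all tested genes those shares were 52.7% and 70.8%. The median level of all tested genes was 9.57 CPM, lower than the mean of every tested member except ANXA10. Shares among genes of like level were not computed. The median log2 fold change was -0.022 over the 9 genes and 0.00333 over all genes, and 4 of the 9 lay above 0, against 50.8% of all genes. Exact two-sided permutation tests of log2 CPM for single members gave p from 0.2 for ANXA4 to 1 for ANXA5 and ANXA6, where 0.1 is the smallest p that 3 libraries against 3 allow.

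The members differed in how much they varied among the 6 libraries. The span between the highest and the lowest library was 0.142 on the log2 scale for ANXA7, 0.247 for ANXA6, 0.266 for ANXA1 and 0.273 for ANXA11. It was 0.386 for ANXA4, 0.517 for ANXA5, 0.62 for ANXA2, 0.769 for ANXA3 and 1.14 for ANXA10. Among the 5559 tested genes with at least 40 CPM, a bound chosen after the data were seen, the quartiles of this span were 0.215 and 0.411 and the median was 0.297. ANXA2, ANXA3 and ANXA5 thus lay above the upper quartile and ANXA7 below the lower one, while ANXA10 had under 40 CPM. Knockdown replicate 1 and control replicate 1 stood above the mean of the 6 libraries for all 9 tested genes, and knockdown replicate 3 and control replicate 3 stood below it for all 9.

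**Figure D4:**
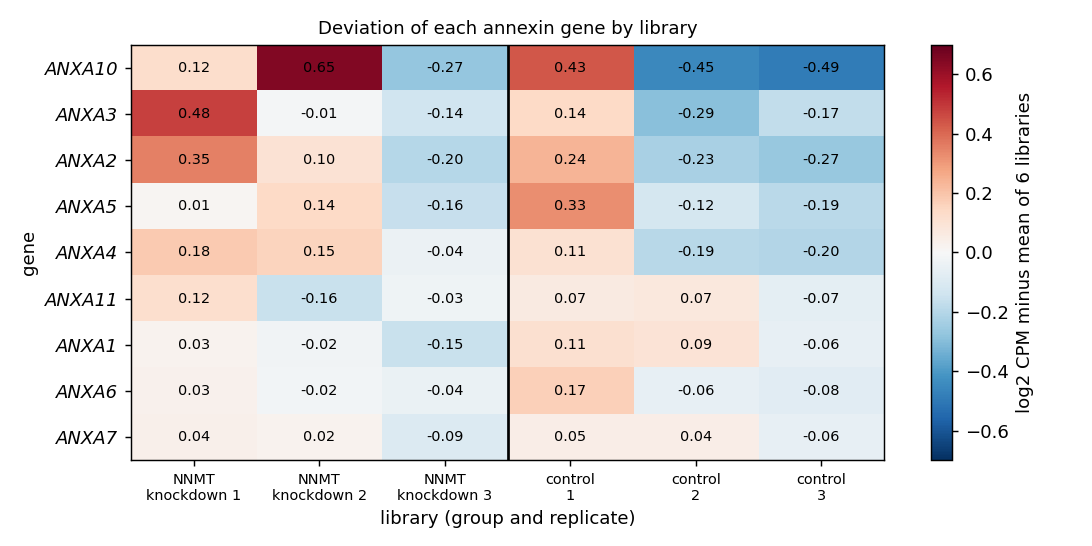
Colours and numbers give log2 CPM of each tested annexin gene minus its mean over 6 libraries, with knockdown libraries left of the line and control libraries right of it, and genes sorted by their span. Replicate 1 of both groups is above 0 for all 9 genes, replicate 3 of both groups is below 0 for all 9, and the rows of ANXA1, ANXA6, ANXA7 and ANXA11 are pale.

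Relations between members across the libraries did not pass after adjustment. Of 36 relations between the 9 tested genes, 8 had an exact permutation p under 0.05 for Pearson's r before adjustment and 0 after Benjamini-Hochberg adjustment over the 36. An r above 0 was found for 35 of the 36, or 97.2%, against 49.9% of all pairs of tested genes, and an absolute r of at least 0.761, the lowest among those 8, for 27.8% against 9.67% of all pairs. These pairs share the same 6 libraries and are not independent. All tested genes had a median of 9.57 CPM, lower than the mean of every tested member except ANXA10. Shares among pairs of genes of like level were not computed. ANXA1 and ANXA7 had the lowest p (r = 0.92, exact permutation p = 0.00139, adjusted 0.05, Spearman rho = 1 with exact permutation p = 0.00278, r = 0.801 without the 2 libraries farthest from the median of ANXA1). ANXA2 and ANXA3 had the highest r, 0.928 (exact permutation p = 0.00417, adjusted 0.0751, rho = 0.943 with exact permutation p = 0.0167, r = 0.828 without the 2 farthest libraries). Within groups, with the group means removed and libraries permuted inside each group, r was 0.987 for ANXA1 and ANXA7 (exact permutation p = 0.0278, the smallest possible, adjusted 0.2) and 0.92 for ANXA2 and ANXA3 (exact permutation p = 0.0556, adjusted 0.273). Of the 36 within-group relations, 5 had an unadjusted exact permutation p under 0.05 and 0 an adjusted one. This within-group test was chosen after the data were seen. Among 11509 genes outside the family with at least 5 CPM, those whose log2 CPM was most like that of ANXA7, the top member per merged exon length, were PRCC, GMEB2 and ETV4, with r of 0.994, 0.986 and 0.984 over 6 libraries. For ANXA4, which had the lowest p between groups, they were NUDCD2, DYNC2I2 and TCF19, with r of 0.996, 0.993 and 0.992. These r are the highest among many genes and carry no test.

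The calcium-binding partners of the annexins included abundant transcripts. Of 6 partner genes, 4 lay above 0 and 2 below it in fitted fold change, against 50.8% of all genes above 0. By edgeR 0 partner genes passed after adjustment. S100A10, whose protein joins ANXA2 in a complex, measured 458, 421 and 403 CPM in knockdown replicates 1, 2 and 3, against 434, 397 and 368 CPM in control replicates 1, 2 and 3. These values ranked the libraries exactly as ANXA2 did. The relation had r = 0.921 over 6 libraries (exact permutation p = 0.00139, the smallest possible) and rho = 1 (exact permutation p = 0.00278). Adjusted over the 5 relations examined, which include ANXA2 with its copy ANXA2P2, these exact permutation p were 0.00695 and 0.0139. Other pairs, such as ANXA11 with PDCD6, were not examined. For ANXA2 with S100A10, r was 0.694 without the 2 libraries farthest from the median of ANXA2. How many other genes reached so high an r with ANXA2 was not computed. Over all pairs of tested genes, 9.67% had an absolute r of at least 0.761. Genes outside the family reached higher r with other members, such as NUDCD2 with ANXA4 (r = 0.996). Within groups r was 0.911 for ANXA2 with S100A10, 0.986 for ANXA1 with S100A11 and 0.855 for ANXA2 with ANXA2P2. Each of these had an exact permutation p of 0.0278, the smallest possible, adjusted 0.0463 over the 5 with this tie. For ANXA11 with S100A6 and ANXA7 with PDCD6, within-group r was 0.776 and 0.0926 (adjusted exact permutation p = 0.139 and 0.889). Here too the within-group test was chosen after the data were seen. Over the 6 libraries together, the other partner relations were ANXA1 with S100A11, ANXA11 with S100A6 and ANXA7 with PDCD6. Their r were 0.464, 0.367 and 0.11, with adjusted exact permutation p of 0.602 to 0.821. S100A6, which binds ANXA11 and ANXA2, was the one partner whose groups did not overlap, at 641 to 726 CPM in knockdown libraries and 492 to 619 CPM in control libraries (log2 fold change 0.25, SE 0.116, adjusted p = 0.9995 by edgeR). That is 1 partner of 6, against 9.2% of all tested genes, and the log2 fold change was 0.144 without control replicate 3. S100A11 and S100A4 had log2 fold changes of 0.129 and -0.168.

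The copies of ANXA2 had few reads. ANXA2P2, a processed copy whose transcript was 98.4% identical to the ANXA2 coding sequence over 1017 aligned bases, measured 7.72, 5.81 and 4.1 CPM in knockdown replicates 1, 2 and 3, against 4.76, 4.27 and 4.17 CPM in control replicates 1, 2 and 3. That was 0.248 to 0.325 reads per 100 ANXA2 reads in knockdown libraries and 0.215 to 0.264 in control libraries, and reads of so close a copy are uncertain. It followed ANXA2 with r = 0.861 (exact permutation p = 0.0139, adjusted 0.0347, r = 0.981 without the 2 farthest libraries), but rho was 0.771 (exact permutation p = 0.103, adjusted 0.258). By contrast, coding sequences of the 10 members were at most 63.8% identical to each other, the closest pair being ANXA4 and ANXA11. The diverged member ANXA9 measured 5.4 to 8.86 CPM in knockdown libraries and 6.56 to 7.8 CPM in control libraries, ANXA2R, described as a receptor gene for ANXA2, lay between 7.55 and 8.19 CPM over all 6, and ANXA13 had 0 reads in all libraries but control replicate 1. Of the 3 genes of this list that were tested, 0 passed.

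At the cell surface, ANXA2 and S100A10 are known to bring plasminogen together with its activators. The activator genes PLAU and PLAT were strongly expressed, at 1321 to 1739 and 518 to 843 CPM in knockdown libraries, and at 1065 to 1707 and 492 to 702.5 CPM in control libraries. Both were named after their values were seen. SERPINE2, which encodes a protease inhibitor, was the 1 gene of 6 tested with an unadjusted p under 0.05, against 4.03% of all genes. It measured 38.2, 50.2 and 48.3 CPM in knockdown libraries, against 56.4, 58.9 and 52 CPM in control libraries (log2 fold change -0.291, SE 0.107, adjusted p = 0.9995 by edgeR). PLG itself stayed at or below 0.107 CPM.

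The receptor genes for ANXA1 peptides were near 0. FPR1, FPR2 and FPR3 did not exceed 0.184 CPM in any library, so the abundant ligand RNA stood beside almost no receptor RNA. Of the 4 tested genes of this group, 0 passed. NR3C1, the glucocorticoid receptor gene, measured 54.8 to 68.7 CPM in knockdown libraries and 54.4 to 72.8 CPM in control libraries, and log2 fold changes were -0.0292 for its target TSC22D3, 0.0636 for its target FKBP5 and 0.0666 for the phospholipase gene PLA2G4A.

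Genes of membrane repair, in which annexins seal torn membranes, included some of the most abundant transcripts examined. Of 16 tested, 12 lay above 0 and 4 below, against 50.8% of all genes above 0. The median log2 fold change was 0.0954, against 0.00333 over all genes, and 0 passed. The groups did not overlap for 2 of the 16, against 9.2% of all tested genes. The calpain gene CAPN2 measured 2599 to 3265 CPM in knockdown libraries and 2797 to 3239 CPM in control libraries, and AHNAK, whose large protein binds the ANXA2 complex, measured 1447 to 1785 CPM in knockdown libraries and 1286 to 1684 CPM in control libraries. The log2 fold changes of MYOF, a dysferlin relative, and CHMP4B, an ESCRT-III subunit gene, were -0.0122 and 0.0778. Of 9 genes that set phosphatidylserine exposure, 2 lay above 0 and 7 below, against the same 50.8% of all genes above 0. Their median was -0.0504, and 0 passed. Among them TMEM30A, the flippase subunit gene, had a log2 fold change of -0.0504, the flippase gene ATP11B had -0.181, and the phospholipid scramblase gene PLSCR1 had -0.116 (SE 0.393).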

How the data were processed

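The authors deposited raw read counts per gene, made with featureCounts 2.0.6 on hg38 alignments with GENCODE 44, per the file headers. The aligner was not stated in the labels or headers. Mates were counted singly (no option to count pairs was set), strand was not used, and reads aligned to several places or overlapping several genes were not counted. Among counts of 2 to 10, 73.4% to 76.7% were even, so a floor in reads can stand for fewer fragments, and halved counts were an alternative. All 62700 identifiers matched a symbol. Of the 10 annexin genes, only ANXA7 shared exon bases with another gene, on the opposite strand (105 of 2862 bases).

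Counts were filtered with filterByExpr, scaled with TMM and tested with edgeR 4.0.16 (R 4.3.3; quasi-likelihood, robust, no covariate). Values were adjusted by the Benjamini-Hochberg method over 20250 genes, with a threshold of 0.05. Standard errors came from the fold change and F. Exact permutation tests used log2 CPM with 0.5 added. The analysis was repeated with DESeq2 1.42.0, limma-voom (limma 3.58.1), 3 other scalings, 2 other filters, the non-robust fit, the replicate number as a block, and each library left out. Named genes were all members and, of each other list, those with p under 0.05 or else the 4 with the highest RPKM, except that some genes of these lists are not reported here. Members and lists were chosen with earlier results of these data known. The replicates come from cultures described as independent. Sequences and motifs used RefSeq promoters of GRCh38.p14. Transcript lengths and identities used GENCODE 29.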

Additional observations from a re-analysis of the deposited data

How the results depend on the processing

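No annexin gene and no partner or pathway gene passed the adjusted threshold under any of the 16 alternatives run. The unadjusted p by edgeR did fall under 0.05 in some. For ANXA3 it was 0.0239 without the filter and 0.0451 with the replicate block. Without control replicate 1 it was 0.017 for ANXA4, 0.0272 for ANXA10 and 0.0488 for ANXA2. For ANXA1, ANXA5, ANXA6, ANXA7 and ANXA11 the unadjusted p stayed above 0.05 throughout. Over all genes, 0 passed in the main edgeR test, 72 without the filter on low counts and 8 with DESeq2. With 1 library left out, 0 to 1 gene passed. Of 300 values of single genes under the 10 alternatives that kept all libraries, 1 turned in sign, that of FKBP5 with the replicate block (log2 fold change -0.00784). Correlations of deviations between same-numbered libraries of the 2 groups were 0.0529, -0.0702 and 0.179 for replicates 1, 2 and 3. Between libraries with different numbers they ran from -0.201 to 0.132. Whether the replicate numbers pair the libraries was not tested. With the block 0 genes passed, and the smallest adjusted p by edgeR was 0.2626. With a library left out, 21 of 180 gene values turned in sign, and the cause was not tested. Log2 fold changes then ran from -0.119 to 0.157 for ANXA5, from -0.0705 to 0.0572 for ANXA6, from -0.0577 to 0.0166 for ANXA7 and from -0.118 to 0.0159 for ANXA11. The ranges were -0.316 to 0.0643 for ANXA9, -0.0523 to 0.0127 for ANXA2R, -0.0989 to 0.0465 for TSC22D3, -0.0837 to 0.244 for PLA2G4A and -0.315 to 0.326 for FKBP5. They were -0.0777 to 0.0858 for CAPN2, -0.0571 to 0.03 for MYOF, -0.0163 to 0.294 for PLAU, -0.108 to 0.0128 for TMEM30A and -0.36 to 0.401 for PLSCR1. ANXA1, ANXA2, ANXA3, ANXA4 and ANXA10 kept their sign under all 16 alternatives. ANXA8 had 0 to 6 reads per library, near the floor of 3.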
